A study of Homo sapiens with 20 samples.

Results

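C42B cells given an siRNA against LSD1 (labelled siLSD1) were compared with C42B cells given the control labelled siNTC, after 96 h in medium with 10% charcoal-stripped serum, which is depleted of steroid hormones. The comparison rests on 6 of the 20 arrays of the study, 3 per group, taken by their sample titles. C42B is a castration-resistant prostate cancer line derived from LNCaP. The cells were transfected for 6 h before the change to charcoal-stripped serum. For C42B the siRNA's sequence and concentration were not given in the sources used here. Replicates had wells of their own, but whether these were independent cultures is not said, so the p-values cover only the spread between the arrays, which may be technical. The labels name a single siRNA against LSD1, so off-target effects and effects of lower LSD1 cannot be told apart. The other groups were LNCaP with siLSD1 or siNTC (3 arrays each, 50 nM siRNA, 96 h in 10% fetal bovine serum, pairs of wells pooled) and C42B with 100 nM of the androgen dihydrotestosterone (DHT) or its ethanol vehicle for 16 h after 72 h in charcoal-stripped serum (4 arrays each).

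LSD1, encoded by KDM1A, is a flavin-dependent enzyme that removes methyl groups from histone lysines. It works in the CoREST complex beside the deacetylases HDAC1 and HDAC2, where it is best known as a repressor of genes. In prostate cells it also binds the androgen receptor and is known both as a coactivator and as a corepressor of androgen target genes. Medium with charcoal-stripped serum leaves that receptor largely without its ligand.

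Expression was read on 3′ arrays with 54675 probe sets, and 1 probe set stood for each of 19775 genes, the brightest of those naming that gene alone. Values are log2 intensities, and a difference is siLSD1 minus siNTC, so that 1 is a doubling. It is given with the SE of limma's fit. A gene passed at a Benjamini-Hochberg adjusted p under 0.05 over all genes, two-sided, and a group mean under 6 was called dim. Where averaging all probe sets of a gene moved its difference by over 1.5 times, the averaged difference closes the paragraph. The array medians were 78.4 to 81.2 on the linear intensity scale. As a sign of RNA quality, the actin control probes gave a 3′ signal above the 5′ signal, by a log2 difference of 1.17 to 1.31 with siLSD1 and 1.13 to 1.19 with siNTC, and its part in the results was not tested. Of 6 prostate line markers measured here none was dim: KLK3, HOXB13, KRT8, KRT18 and EPCAM had siNTC means of 13.67, 11.40, 11.42, 13.17 and 12.50, and FOLH1 had 8.05. Of 15 stromal, endothelial and leukocyte markers 8 were dim in both groups and the rest were not. The dim ones included PTPRC (3.87 with siLSD1, 3.85 with siNTC) and CDH5 (4.30, 4.43). None of the 15 passed, and their summed linear intensity ranged from 1242 to 1367 on the siLSD1 arrays and from 1310 to 1338 on the siNTC arrays.

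The targeted transcript was lower in each siLSD1 array than in any siNTC array. KDM1A, on chromosome 1, read 8.03, 7.83 and 7.80 with siLSD1 and 10.29, 10.36 and 10.21 with siNTC. That is a difference of −2.40 ± 0.08, adjusted p = 1.2e-05, a fall of 81.1% on the linear scale. The two-sided exact permutation test of these 6 values gave p = 0.1, the smallest that 3 arrays against 3 allow. A single probe set reads KDM1A.

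The response was broad and mostly small. With siLSD1 1713 genes were higher (8.66% of those tested) and 1856 lower (9.39%), and the median difference over all genes was −0.02. Rises reached further than falls: 380 genes rose and 182 fell by at least 0.5, 43 rose and 6 fell by at least 1, and 12 rose and 1 fell by at least 1.5. Among the genes that passed, 104 higher and 108 lower ones were dim in both groups. Single arrays moved the counts: 958 higher and 949 lower genes passed without siLSD1 replicate 3, and 1013 and 1098 without siLSD1 replicate 2. Leaving out siNTC replicate 2 left 1147 lower genes, and leaving out siNTC replicate 3 left 1183. Passing or not, all 3 siLSD1 arrays lay above all 3 siNTC arrays for 16.3% of the genes and below them for 19.9%. All 1713 higher and 1856 lower genes were among these, so the lack of overlap given for genes below adds nothing to their calls.

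The leading rises included genes of secreted and membrane proteins, of splicing and of signalling. TSPAN8, a tetraspanin of the cell surface, read 6.66, 6.68 and 6.68 with siLSD1 and 4.58, 4.75 and 4.72 with siNTC. The siNTC arrays were dim and the groups did not overlap, and the rise was 1.99 ± 0.06 as fitted and at least 0.67 counted from 6. ACP3, prostatic acid phosphatase, a phosphatase that prostate epithelium secretes, read 12.28, 12.31 and 12.39 with siLSD1 and 10.33, 10.37 and 10.36 with siNTC, a 3.93-fold rise (1.97 ± 0.05, adjusted p = 1.1e-05). It was bright in both groups, and its siLSD1 arrays all lay above its siNTC arrays. TMEM178A, a membrane protein of the endoplasmic reticulum (ER), read 7.99, 8.18 and 8.31 with siLSD1 and 6.47, 6.49 and 6.23 with siNTC (1.76 ± 0.10, adjusted p = 0.00016). In LNCaP it was dim in both groups, at most 4.70.

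Secreted inhibitors, receptors and nucleases were next. PROCR, the receptor that binds protein C on endothelium, read 7.62, 7.98 and 7.72 with siLSD1 and 6.00, 6.23 and 6.01 with siNTC (1.70 ± 0.10, adjusted p = 0.00021). SERPINI1, neuroserpin, an inhibitor of tissue plasminogen activator, read 10.30, 10.38 and 10.38 with siLSD1 and 8.63, 8.70 and 8.67 with siNTC (1.69 ± 0.05, adjusted p = 1.1e-05). The 3 arrays of each group lay close together for SERPINI1, and the groups did not overlap. DNASE1L3, a secreted nuclease, read 9.43, 9.56 and 9.62 with siLSD1 and 7.88, 7.98 and 7.77 with siNTC (1.66 ± 0.07, adjusted p = 7.9e-05), and its rise was larger than that in LNCaP by 1.03 ± 0.13 (adjusted p = 0.00033). CRISP3, a cysteine-rich secretory protein, rose by 1.43 ± 0.08 and SCGB1D2, a secretoglobin also called lipophilin B, by 1.33 ± 0.06. DNASE1L3 was at 0.87 with all probe sets averaged.

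PTBP2, the neuronal form of polypyrimidine tract binding protein, which regulates splicing, read 10.43, 10.50 and 10.58 with siLSD1 and 8.999, 8.87 and 8.66 with siNTC (1.66 ± 0.09, adjusted p = 0.00015). RTN1, a reticulon of the ER, rose by 1.61 ± 0.08, the pseudogene HMGN2P46 by 1.503 ± 0.08 and ARG2, the mitochondrial arginase, by 1.49 ± 0.05. ARG2 read 13.08, 13.14 and 13.16 with siLSD1 and 11.61, 11.70 and 11.61 with siNTC, with its siLSD1 arrays all above its siNTC arrays, and its rise exceeded that in LNCaP by 1.15 ± 0.07 (adjusted p = 2.6e-06). HOPX, a homeodomain-only protein, rose by 1.43 ± 0.11 and TTYH1, a tweety family membrane protein, by 1.37 ± 0.06. From dim siNTC levels, FKBP1B, a calstabin that binds calcium release channels, rose by at least 1.00 (1.55 ± 0.13 as fitted). LCK, a SRC family tyrosine kinase best known from T cells, rose by at least 1.18 (1.35 ± 0.12 as fitted). TSPAN7, SCN4B and TRPM8, also among the leading rises, are described with their families. HOPX and LCK were at 0.47 and 0.86 with all probe sets averaged.

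**Figure D1:**
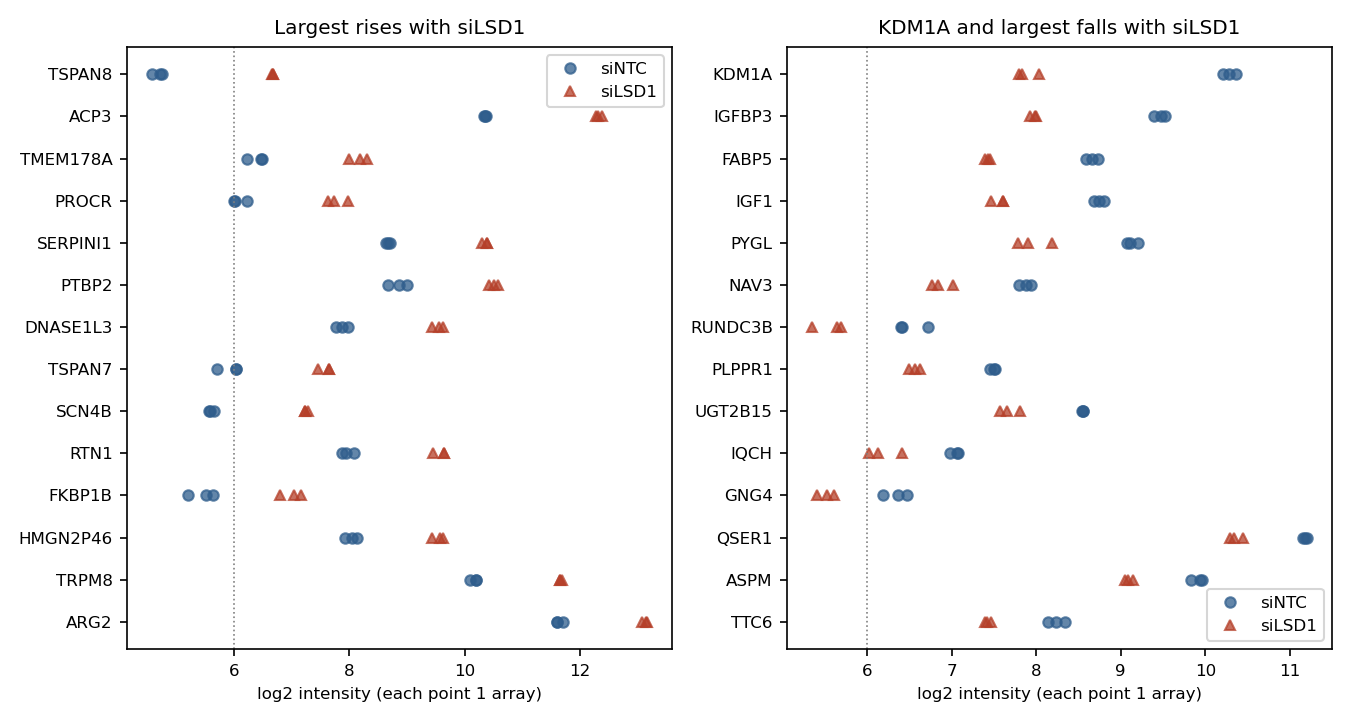
Log2 intensity of the leading rises (left) and of KDM1A and the leading falls (right) on each array of C42B, with 1 point per array, triangles for siLSD1 and circles for siNTC; the dotted line is the level of 6 below which a group mean was called dim. For each gene shown the 3 siLSD1 points lie wholly to 1 side of the 3 siNTC points, which the rule that chose these genes required. TSPAN8, SCN4B and FKBP1B start from dim control arrays.

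After KDM1A the leading falls included genes of growth factor signalling, metabolism and neurites. IGFBP3, which binds insulin-like growth factors in the extracellular space, read 7.93, 7.997 and 7.99 with siLSD1 and 9.48, 9.39 and 9.53 with siNTC (−1.496 ± 0.06, adjusted p = 2.3e-05). FABP5, a carrier of fatty acids in the cytosol, read 7.43, 7.39 and 7.46 with siLSD1 and 8.66, 8.74 and 8.58 with siNTC (−1.24 ± 0.06, adjusted p = 8.5e-05). The groups did not overlap for either gene. PYGL, the liver form of glycogen phosphorylase, read 7.79, 8.19 and 7.90 with siLSD1 and 9.07, 9.20 and 9.11 with siNTC (−1.17 ± 0.10, adjusted p = 0.0006). In LNCaP PYGL rose by 0.67 ± 0.08, and the effects in the lines differed by −1.84 ± 0.13 (adjusted p = 1.3e-05).

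NAV3, a neuron navigator that binds microtubules, fell by 1.00 ± 0.08, and PLPPR1, a phospholipid phosphatase-related membrane protein of neurons, fell by 0.93 ± 0.05. IQCH, QSER1, TTC6 and CCDC83 are named for sequence motifs they carry. They differed by −0.85 ± 0.10, −0.82 ± 0.06, −0.81 ± 0.06 and −0.80 ± 0.06. QSER1 read 10.45, 10.29 and 10.35 with siLSD1 and 11.21, 11.15 and 11.18 with siNTC, with no overlap. SLC16A10, a transporter of aromatic amino acids, fell by 0.79 ± 0.06 and RGS2, which shortens signalling of G proteins, by 0.77 ± 0.05. Falling to dim levels, RUNDC3B fell by at least 0.51 (fitted −0.95 ± 0.12) and GNG4, a G protein gamma subunit, fell by at least 0.34 (fitted −0.83 ± 0.09). NAV3, PLPPR1 and IQCH were at −0.45, −0.50 and −0.39 with all probe sets averaged. TTC6 and GNG4 were at −0.51 and −0.47 with all probe sets averaged.

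In each list of secretory route genes some members rose, though most members of the transport and translocon lists did not pass. Prostate epithelium is a secretory tissue whose kallikrein proteases and other secreted proteins pass through the ER and the Golgi apparatus, and androgens are known to drive both the products and the route. Of 15 measured genes of kallikreins and other secreted prostate proteins 8 rose and none fell, with a median difference of 0.21. Of the 15, 7 were dim in both groups, and with the filter on dim genes 7 passed higher. Besides ACP3, KLK2, a kallikrein that activates other kallikreins, read 12.40, 12.44 and 12.42 with siLSD1 and 11.72, 11.70 and 11.61 with siNTC (0.74 ± 0.05, adjusted p = 0.00029). KLK3, which encodes prostate-specific antigen, read 14.06, 14.07 and 14.07 with siLSD1 and 13.71, 13.72 and 13.59 with siNTC (0.40 ± 0.05, adjusted p = 0.0029), again without overlap. AZGP1, a secreted zinc-binding glycoprotein, rose by 0.64 ± 0.10. BMPR1B, counted on this list although it is a receptor for bone morphogenetic proteins, rose by 1.03 ± 0.06. Without siLSD1 replicate 2 or 3 or siNTC replicate 2, and in the fit of all 20 arrays, 5 members passed higher. In the DHT experiment, which shares no array with this one, 9 of the 15 were higher and 1 lower, beside 13.4% and 19.4% of all genes. With DHT KLK2 rose by 5.19 ± 0.06, KLK3 by 2.74 ± 0.07 and BMPR1B by 3.16 ± 0.11, while ACP3 fell by 1.61 ± 0.05. KLK3 was at 0.26 with all probe sets averaged.

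ER chaperones and folding enzymes were higher in 17 of 32 cases and lower in 1, with a median of 0.22. PDIA3, a disulfide isomerase that works with the lectin chaperones, read 11.05, 11.21 and 11.20 with siLSD1 and 10.37, 10.53 and 10.62 with siNTC (0.65 ± 0.08, adjusted p = 0.0022). ERO1B, an oxidase that recharges disulfide isomerases, read 7.85, 7.84 and 7.80 with siLSD1 and 7.29, 7.18 and 7.26 with siNTC (0.59 ± 0.05, adjusted p = 0.00064). The siLSD1 arrays were the higher ones throughout for both. DNAJC3 and DNAJB9, co-chaperones of the ER, rose by 0.55 ± 0.06 and 0.51 ± 0.06, and EDEM2, a mannosidase that marks misfolded glycoproteins for degradation, by 0.47 ± 0.06. With DHT 30 of the 32 were higher, beside 13.4% of all genes. Without siLSD1 replicate 2 or without siLSD1 replicate 3 the siLSD1 count was 11. Among sensors and transcription factors of ER stress 4 of 19 rose and none fell. EIF2AK3, the ER kinase PERK that slows translation, read 10.31, 10.36 and 10.50 with siLSD1 and 9.79, 9.73 and 9.60 with siNTC (0.68 ± 0.07, adjusted p = 0.0013), and CREB3L4, a membrane-bound transcription factor abundant in prostate, rose by 0.31 ± 0.05. ERN1 (0.29 ± 0.05) and XBP1 (0.32 ± 0.08) passed as well, but not with their probe sets averaged (adjusted p up to 0.28 and 0.095 over the alternatives), and XBP1 did not pass in most fits with an array left out. EIF2AK3, ERN1 and XBP1 were at 0.37, 0.088 and 0.18 with all probe sets averaged.

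The promoters of ERO1B and HSP90B1, an ER chaperone of the heat shock protein 90 family (0.39 ± 0.10, adjusted p = 0.03), are shown because both genes rose and both hold the ER stress response element, which NF-Y and the ER stress factors ATF6 and XBP1 are known to bind. The element was searched as CCAAT, any 9 bases and CCACG on both strands in RefSeq promoters of 300 bases, from 250 before to 50 after the annotated start, in GRCh38.p14. It contains a CCAAT box, so the searches overlap. Capitals mark each match, 5′ to 3′ in the direction of the gene.
ERO1B, chr1:236281909-236282208, minus strand: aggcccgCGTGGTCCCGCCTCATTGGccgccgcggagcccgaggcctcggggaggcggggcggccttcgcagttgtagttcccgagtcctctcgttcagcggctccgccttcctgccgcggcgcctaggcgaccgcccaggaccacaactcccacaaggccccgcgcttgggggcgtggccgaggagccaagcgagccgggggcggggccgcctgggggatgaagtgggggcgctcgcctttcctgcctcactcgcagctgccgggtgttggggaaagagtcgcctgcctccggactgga
HSP90B1, chr12:103930160-103930459, plus strand: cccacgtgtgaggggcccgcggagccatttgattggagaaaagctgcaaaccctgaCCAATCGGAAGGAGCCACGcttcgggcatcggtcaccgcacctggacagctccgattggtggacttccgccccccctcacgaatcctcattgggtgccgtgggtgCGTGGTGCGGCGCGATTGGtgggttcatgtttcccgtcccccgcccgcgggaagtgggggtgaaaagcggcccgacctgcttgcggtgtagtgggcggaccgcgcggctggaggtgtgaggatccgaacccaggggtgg
The match in ERO1B begins at −243 from the start base, and those in HSP90B1 at −194 and −89. Of 29 measured members of the list with a RefSeq promoter, 6 held the element, as did 3 of the 15 that rose. Among promoters of all measured genes the share was 0.0975%, 15 of 15384, and among all 27305 promoters it was 0.0806%. A match describes these letters only. The call of HSP90B1 ended with the mean of all probe sets and without siLSD1 replicate 2 or 3 or siNTC replicate 3 (adjusted p up to 0.097).

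Transport between the ER and the Golgi and the enzymes that build glycans followed the same direction in some members. Of 37 genes of COPII and COPI vesicles and Golgi transport 12 rose and none fell, with a median of 0.12. SEC24D, a cargo-binding subunit of the COPII coat, read 9.13, 9.40 and 9.35 with siLSD1 and 8.28, 8.35 and 7.89 with siNTC (1.12 ± 0.13, adjusted p = 0.0017), the largest rise of the list. SEC24A and SEC31A, of the same coat, rose by 0.39 ± 0.07 and 0.38 ± 0.05. The count fell to 3 without siLSD1 replicate 3 and was 5 to 7 without siLSD1 replicate 2 or any single siNTC array. Of 31 genes of the translocon, signal peptidase and N-glycosylation 6 rose, with 1 left when any array except siLSD1 replicate 1 was dropped and 2 with a replicate block. The member that stayed, SEC11C, a catalytic subunit of signal peptidase, read 12.31, 12.45 and 12.42 with siLSD1 and 11.68, 11.76 and 11.70 with siNTC (0.68 ± 0.06, adjusted p = 0.00051). SEC24D and SEC24A were at 0.52 and 0.22 with all probe sets averaged.

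Of 36 glycan and sulfate enzymes 10 rose and 1 fell. CSGALNACT1, which starts chondroitin sulfate chains, read 9.19, 9.45 and 9.33 with siLSD1 and 8.35, 8.39 and 8.19 with siNTC (1.01 ± 0.08, adjusted p = 0.00051). ST6GALNAC1, which puts sialic acid on O-linked glycans, read 10.08, 10.00 and 9.88 with siLSD1 and 9.22, 8.98 and 9.07 with siNTC (0.90 ± 0.08, adjusted p = 0.00066). The groups did not overlap for either, and DHT raised them by 4.44 ± 0.06 and 4.03 ± 0.05. GCNT2, a branching enzyme, rose by 0.41 ± 0.05 and MGAT5, which branches N-linked glycans, fell by 0.33 ± 0.05. The rises numbered 5 or 6 without any array other than siLSD1 replicate 1. CSGALNACT1 and GCNT2 were at 0.43 and 0.24 with all probe sets averaged.

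Of 26 exocytosis genes 6 were higher and 3 lower, beside 8.66% and 9.39% of all genes. RAB3B, a GTPase of secretory vesicles, rose by 0.47 ± 0.05, the vesicle and membrane fusion proteins VAMP2 and STX3 by 0.44 ± 0.06 and 0.34 ± 0.05, and SYTL2, a synaptotagmin-like RAB effector, fell by 0.30 ± 0.05. The lower members numbered 1 without siLSD1 replicate 2 or 3 or without siNTC replicate 2 or 3. Lysosome and autophagy genes were higher in 5 and lower in 3 of 29 cases, beside the same shares. WIPI1, which binds the membrane of forming autophagosomes, rose by 0.64 ± 0.05. The rises numbered 1 or 2 and the falls 0 to 2 when any array but siLSD1 replicate 1 was left out or with a replicate block.

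Some lipid genes rose. Of 27 cholesterol and fatty acid synthesis genes 11 rose and none fell, with a median of 0.12. ELOVL7, an elongase of long-chain fatty acids, read 11.72, 11.76 and 11.78 with siLSD1 and 11.13, 11.17 and 11.15 with siNTC (0.60 ± 0.05, adjusted p = 0.00042), and ELOVL5, an elongase of polyunsaturated fatty acids, rose by 0.43 ± 0.05. ACACA, the acetyl-CoA carboxylase that commits carbon to fatty acid synthesis, rose by 0.33 ± 0.05. The count was 5 to 7 without any array other than siLSD1 replicate 1 and 7 with probe sets averaged. With DHT 21 of the 27 were higher and 3 lower, beside 13.4% and 19.4% of all genes. Fatty acid uptake, activation and oxidation genes were higher in 10 of 33 cases and lower in 2. ACSL1, which joins fatty acids to coenzyme A, rose by 0.50 ± 0.05, the nuclear receptor PPARG by 0.50 ± 0.08, ECI2, an enoyl-CoA isomerase, by 0.47 ± 0.05 and ACAD8, a dehydrogenase of valine breakdown, by 0.43 ± 0.05. FABP5, whose values stand above, was the largest fall of this list. ELOVL5 was at 0.26 with all probe sets averaged.

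**Figure D2:**
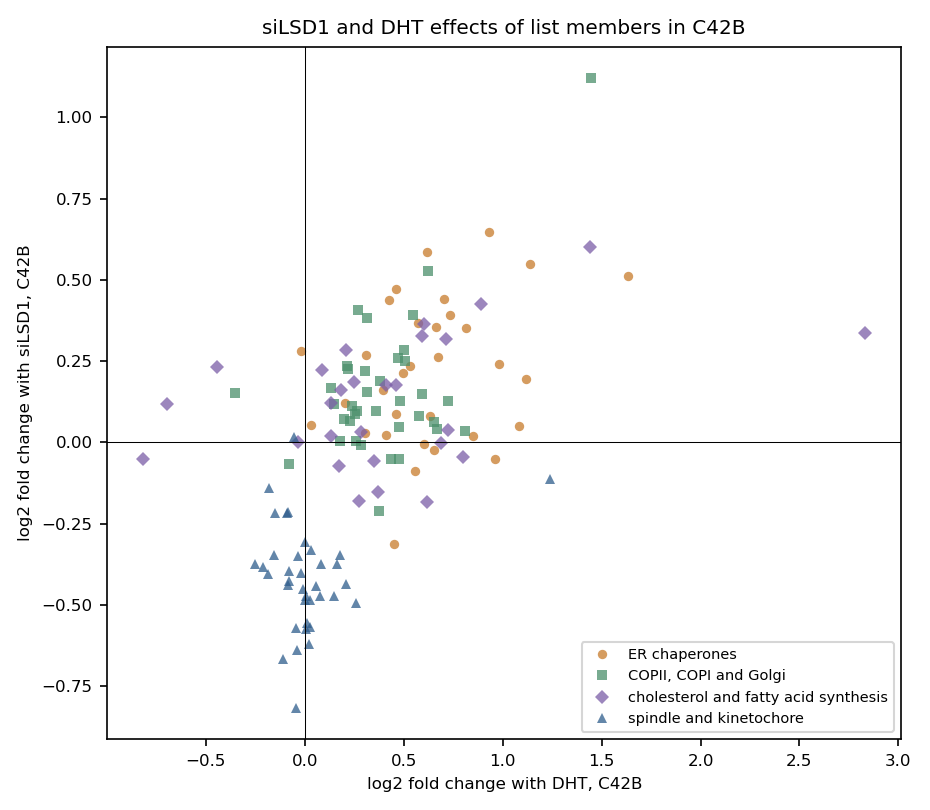
Log2 fold change with siLSD1 in C42B (vertical axis) against log2 fold change with DHT in C42B (horizontal axis), 1 point per measured member of 4 gene lists. ER chaperone and COPII, COPI and Golgi genes lie mostly to the right and above 0, and spindle and kinetochore genes lie near 0 with DHT and below 0 with siLSD1.

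Most spindle, kinesin and replication genes fell. Entry into S phase is run by cyclins, cyclin-dependent kinases and E2F factors, and the later G2 and M phase genes by the MYBL2 and FOXM1 factors with the MuvB complex. Of 37 spindle, kinetochore and checkpoint genes 30 fell and none rose, with a median of −0.43. ASPM, which focuses spindle poles, read 9.05, 9.14 and 9.08 with siLSD1 and 9.97, 9.83 and 9.93 with siNTC (−0.82 ± 0.06, adjusted p = 0.00029). CENPF, a kinetochore protein, read 10.12, 10.07 and 10.02 with siLSD1 and 10.73, 10.70 and 10.77 with siNTC (−0.67 ± 0.05, adjusted p = 0.00042), and the groups were again apart on all 6 arrays. DLGAP5 and TPX2, which stabilise spindle microtubules, fell by 0.64 ± 0.05 and 0.62 ± 0.05. Of 20 kinesins 13 fell and 1 rose, with KIF14, a motor of cytokinesis, at −0.74 ± 0.06, KIF15, a spindle motor, at −0.70 ± 0.05 and KIF2C, which takes microtubules apart at centromeres, at −0.61 ± 0.05. In bulk RNA fewer dividing cells and less transcript per dividing cell cannot be told apart. CENPF was at −0.33 with all probe sets averaged.

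Replication genes were lower in 30 of 40 cases, with a median of −0.37 and none higher. GINS4 belongs to the replicative helicase and fell by 0.62 ± 0.08. PRIM1, the primase subunit that lays down RNA primers, read 9.86, 9.95 and 9.82 with siLSD1 and 10.49, 10.51 and 10.47 with siNTC (−0.62 ± 0.05, adjusted p = 0.00057), and MCM2, of the helicase ring, read 10.97, 11.002 and 10.93 with siLSD1 and 11.64, 11.51 and 11.59 with siNTC (−0.61 ± 0.05, adjusted p = 0.0006). Of 31 repair genes 19 were lower and none higher, led by the exonuclease EXO1 (−0.66 ± 0.07), the glycosylase NEIL3 (−0.60 ± 0.07), the BRCA1-associated helicase BRIP1 (−0.59 ± 0.08) and the recombination factor RAD54L (−0.53 ± 0.06). The repair count was 12 without siLSD1 replicate 3 and 11 without siNTC replicate 1 or siNTC replicate 2. GINS4 was at −0.29 with all probe sets averaged.

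Some regulators of division were lower as well. Of 21 E2F, DREAM and MYB factors 10 were lower and 1 higher. E2F7, a repressing E2F, read 8.93, 8.84 and 8.69 with siLSD1 and 9.64, 9.64 and 9.55 with siNTC (−0.79 ± 0.07, adjusted p = 0.00068). MYB fell by 0.68 ± 0.12, TFDP1, the partner of E2F proteins, by 0.49 ± 0.05 and MYBL2 by 0.47 ± 0.05. FOXM1 fell by 0.44 ± 0.05. Of 27 cyclins, CDKs and inhibitors 12 were lower, among them the phosphatases CDC25C (−0.60 ± 0.05) and CDC25B (−0.48 ± 0.06), CDKN3 (−0.48 ± 0.05) and the CDK subunit CKS1B (−0.47 ± 0.05). CDKN1A, which encodes the CDK inhibitor p21, was the only member higher, at 11.25, 11.10 and 11.18 with siLSD1 and 10.75, 10.67 and 10.74 with siNTC (0.46 ± 0.06, adjusted p = 0.0023). Among histones and their chaperones 6 of 18 were lower and 1 higher. ASF1B, a histone chaperone of dividing cells, fell by 0.72 ± 0.06 and H2AX by 0.37 ± 0.05, and the histone gene H2BC21 rose by 0.36 ± 0.05. E2F7 and MYB were at −0.50 and −0.45 with all probe sets averaged.

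Promoters of 4 of these genes are shown because their members moved together and hold elements known from cell cycle genes. The cell cycle genes homology region (CHR), which the MuvB complex is known to bind, was searched as TTTGAA or TTCGAA. The E2F element was searched as TTTCCCGC, TTTGGCGC, TTTCGCGC or TTTGCCGC. Both were searched on both strands of the same 300 bases, and capitals mark the matches.
ASPM, chr1:197146620-197146919, minus strand: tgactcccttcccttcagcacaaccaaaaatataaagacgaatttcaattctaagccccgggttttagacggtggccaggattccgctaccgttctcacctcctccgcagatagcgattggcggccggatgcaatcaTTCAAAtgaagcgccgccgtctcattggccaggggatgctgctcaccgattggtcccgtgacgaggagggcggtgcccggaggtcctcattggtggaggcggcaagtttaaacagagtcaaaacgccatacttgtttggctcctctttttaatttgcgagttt
CENPF, chr1:214602945-214603244, plus strand: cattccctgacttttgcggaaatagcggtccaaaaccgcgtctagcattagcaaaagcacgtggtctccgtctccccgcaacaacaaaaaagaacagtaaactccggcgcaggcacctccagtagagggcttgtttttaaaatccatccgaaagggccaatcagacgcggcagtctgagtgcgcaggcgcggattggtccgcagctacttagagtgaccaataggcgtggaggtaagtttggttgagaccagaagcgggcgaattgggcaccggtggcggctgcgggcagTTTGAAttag
MCM2, chr3:127598161-127598460, plus strand: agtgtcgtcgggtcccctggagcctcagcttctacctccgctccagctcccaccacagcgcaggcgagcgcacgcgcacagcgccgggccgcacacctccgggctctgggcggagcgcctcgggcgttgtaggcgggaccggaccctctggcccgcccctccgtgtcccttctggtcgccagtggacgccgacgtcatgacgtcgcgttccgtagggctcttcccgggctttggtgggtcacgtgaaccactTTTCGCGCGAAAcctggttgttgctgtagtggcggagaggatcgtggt
POLA2, chr11:65261712-65262011, plus strand: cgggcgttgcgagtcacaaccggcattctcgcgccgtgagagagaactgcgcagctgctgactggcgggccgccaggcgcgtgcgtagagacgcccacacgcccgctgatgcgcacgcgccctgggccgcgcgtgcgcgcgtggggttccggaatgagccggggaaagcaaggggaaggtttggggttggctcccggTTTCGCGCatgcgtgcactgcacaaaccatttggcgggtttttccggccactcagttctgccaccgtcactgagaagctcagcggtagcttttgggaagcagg
The CHR lies at −113 from the start base in ASPM and at 40 in CENPF. The E2F matches lie at 2 and 6 in MCM2, where they overlap on opposite strands, and at −53 in POLA2, a subunit of the primase complex (−0.51 ± 0.06, adjusted p = 0.0023). Of the 25 lower spindle and kinetochore genes with a RefSeq promoter, 19 held the CHR (76%), and of the 13 lower kinesins 10 did (76.9%), beside 13.6% of the promoters of all measured genes and 16.8% of all promoters. Of the 27 lower replication genes with a promoter 14 held the E2F element (51.9%), beside 4.23% of measured genes and 3.27% of all promoters. Over the measured members of these lists, whether lower or not, the shares were 74.2% of 31 spindle and kinetochore genes and 55% of 20 kinesins for the CHR, and 44.4% of 36 replication genes for the E2F element.

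**Figure D3:**
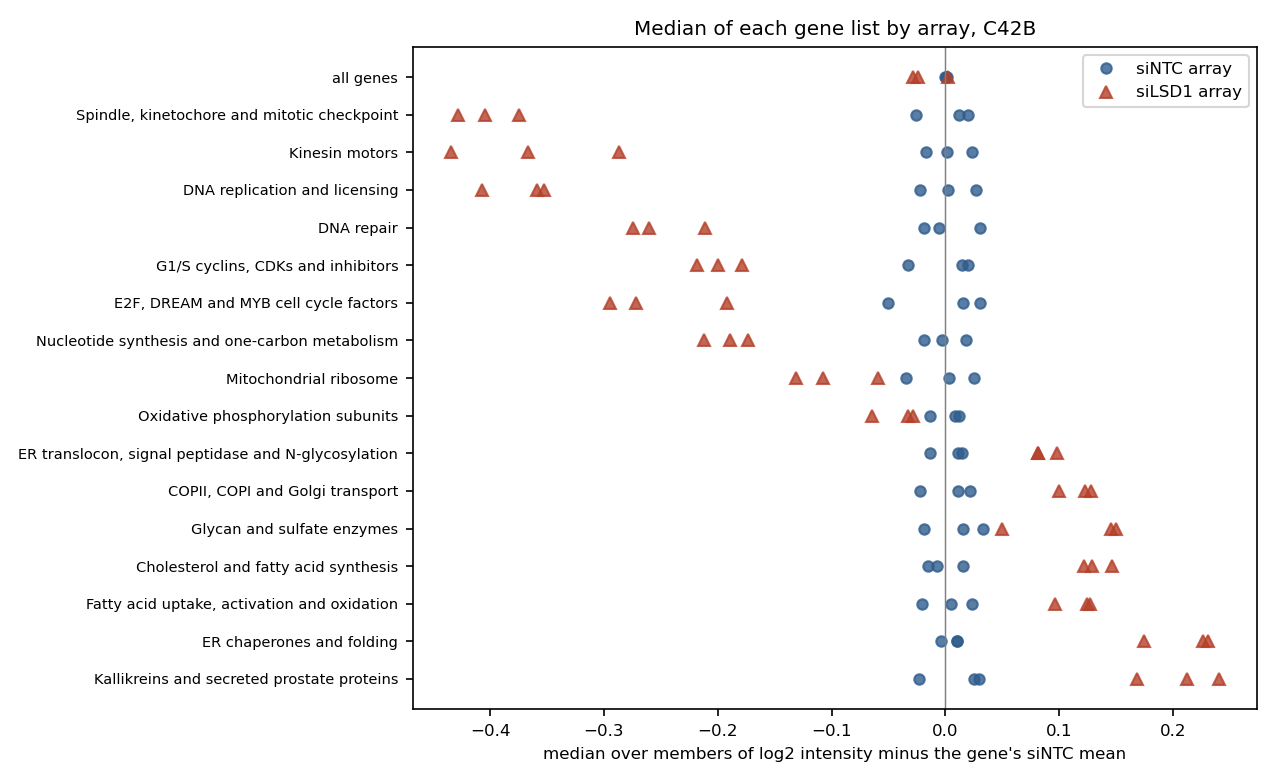
Median over the members of a gene list of log2 intensity minus the gene's siNTC mean, for each array of C42B, with triangles for siLSD1 and circles for siNTC. For the spindle, kinesin, replication and repair lists each siLSD1 array lies below each siNTC array, for ER chaperones and secreted prostate proteins each lies above, and over all genes the siLSD1 arrays lie between −0.03 and 0.003.

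The spindle and replication lists were also lower in LNCaP. All 37 spindle and kinetochore genes passed lower there, with a median of −1.21, and 39 of 40 replication genes, beside 12.5% of all genes. The lines also differ in serum and siRNA conditions, so line and medium cannot be told apart. The difference between the effects passed for 34 of the 37 and for 36 of the 40, in each case with the effect less negative in C42B than in LNCaP. Of these 29 and 27 had passed lower in C42B. Over all genes 5.56% passed in that direction and 6.07% in the other. CDC20, which activates the anaphase-promoting complex, fell by 0.56 ± 0.05 in C42B and fell by 1.62 ± 0.07 in LNCaP (difference 1.06 ± 0.08, adjusted p = 1.8e-05). With DHT 5 of the 37 spindle genes were higher and 5 lower, and of the 40 replication genes 10 were higher and 5 lower. Of all genes 13.4% were higher and 19.4% lower with DHT. ASPM differed by −0.04 ± 0.05 with DHT (adjusted p = 0.58) and CENPF by −0.11 ± 0.06 (adjusted p = 0.23).

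**Figure D4:**
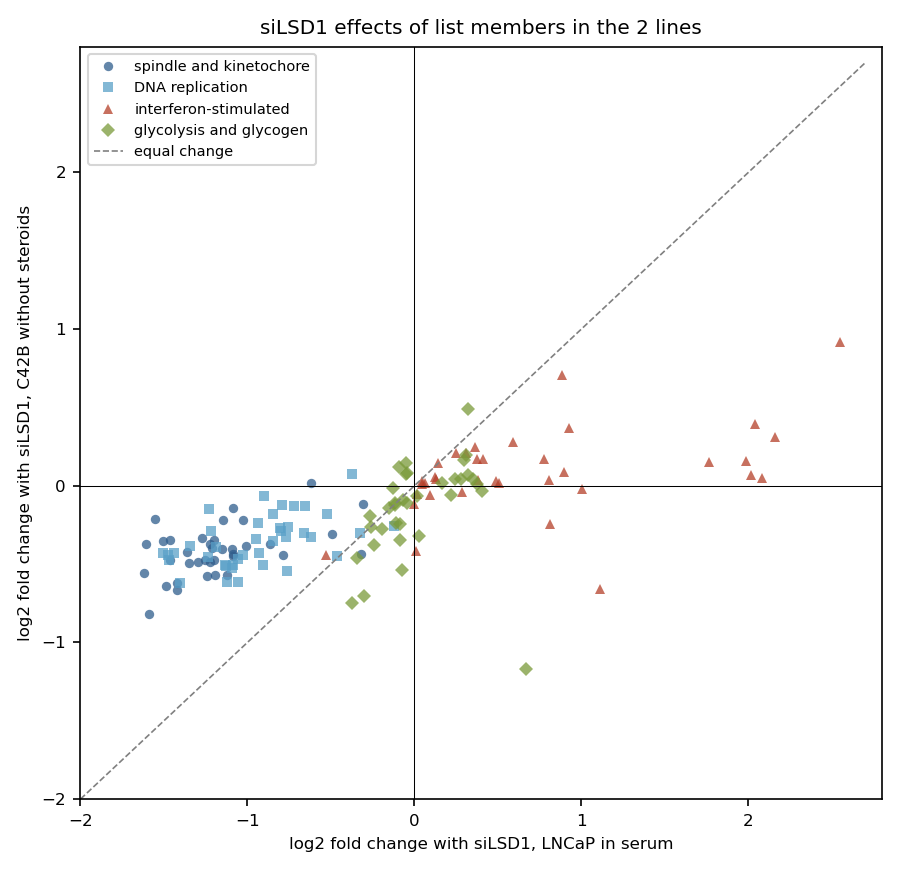
Log2 fold change with siLSD1 in C42B without steroids (vertical axis) against that in LNCaP in serum (horizontal axis), 1 point per measured member of 4 gene lists; the dashed line marks equal change. Spindle and replication genes lie above the line on the left, with lower values in LNCaP than in C42B, and several interferon-stimulated genes lie far to the right near 0 on the vertical axis.

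Nucleotide and energy metabolism genes were lower in several lists. Of 28 nucleotide synthesis and one-carbon genes 13 fell and 1 rose, with thymidylate synthase TYMS at −0.47 ± 0.06, the pyrimidine enzyme UMPS at −0.46 ± 0.05, the ribonucleotide reductase subunit RRM2 at −0.44 ± 0.05 and the mitochondrial folate enzyme MTHFD2 at −0.42 ± 0.05. Without siLSD1 replicate 3 the falls numbered 8. Of 35 glycolysis and glycogen genes 13 fell and 2 rose. PFKFB3, which makes the activator of phosphofructokinase, read 8.09, 8.06 and 8.17 with siLSD1 and 8.83, 8.85 and 8.87 with siNTC (−0.75 ± 0.05, adjusted p = 0.00027). PFKP, the platelet form of phosphofructokinase, read 10.60, 10.57 and 10.39 with siLSD1 and 11.25, 11.18 and 11.26 with siNTC (−0.71 ± 0.07, adjusted p = 0.00084). The hexokinases moved apart, HK1 by 0.49 ± 0.05 and HK2 by −0.46 ± 0.05. PFKFB4, the related enzyme, fell by 0.54 ± 0.09. For 10 of these 35 genes the effect was lower in C42B than in LNCaP by the test of the difference, and for none higher. UMPS, PFKP and HK2 were at −0.22, −0.26 and −0.24 with all probe sets averaged.

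Mitochondrial ribosome genes were lower in 13 of 34 cases and higher in none, with MRPL11 at −0.41 ± 0.05 and MRPL16 at −0.37 ± 0.05, and 7 or 8 passed when any single array was left out, with probe sets averaged or with a replicate block. Oxidative phosphorylation subunits moved little: 1 of 28 passed, CYC1 of complex III (−0.27 ± 0.05), and it did not pass without siLSD1 replicate 3 (adjusted p = 0.055). Of 31 proteasome subunits 5 fell and 1 rose, PSMD3 (0.28 ± 0.05), and the falls numbered 0 without siLSD1 replicate 3, 1 without siNTC replicate 3 and 2 without siLSD1 replicate 2 or siNTC replicate 2 or with a replicate block.

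**Figure D5:**
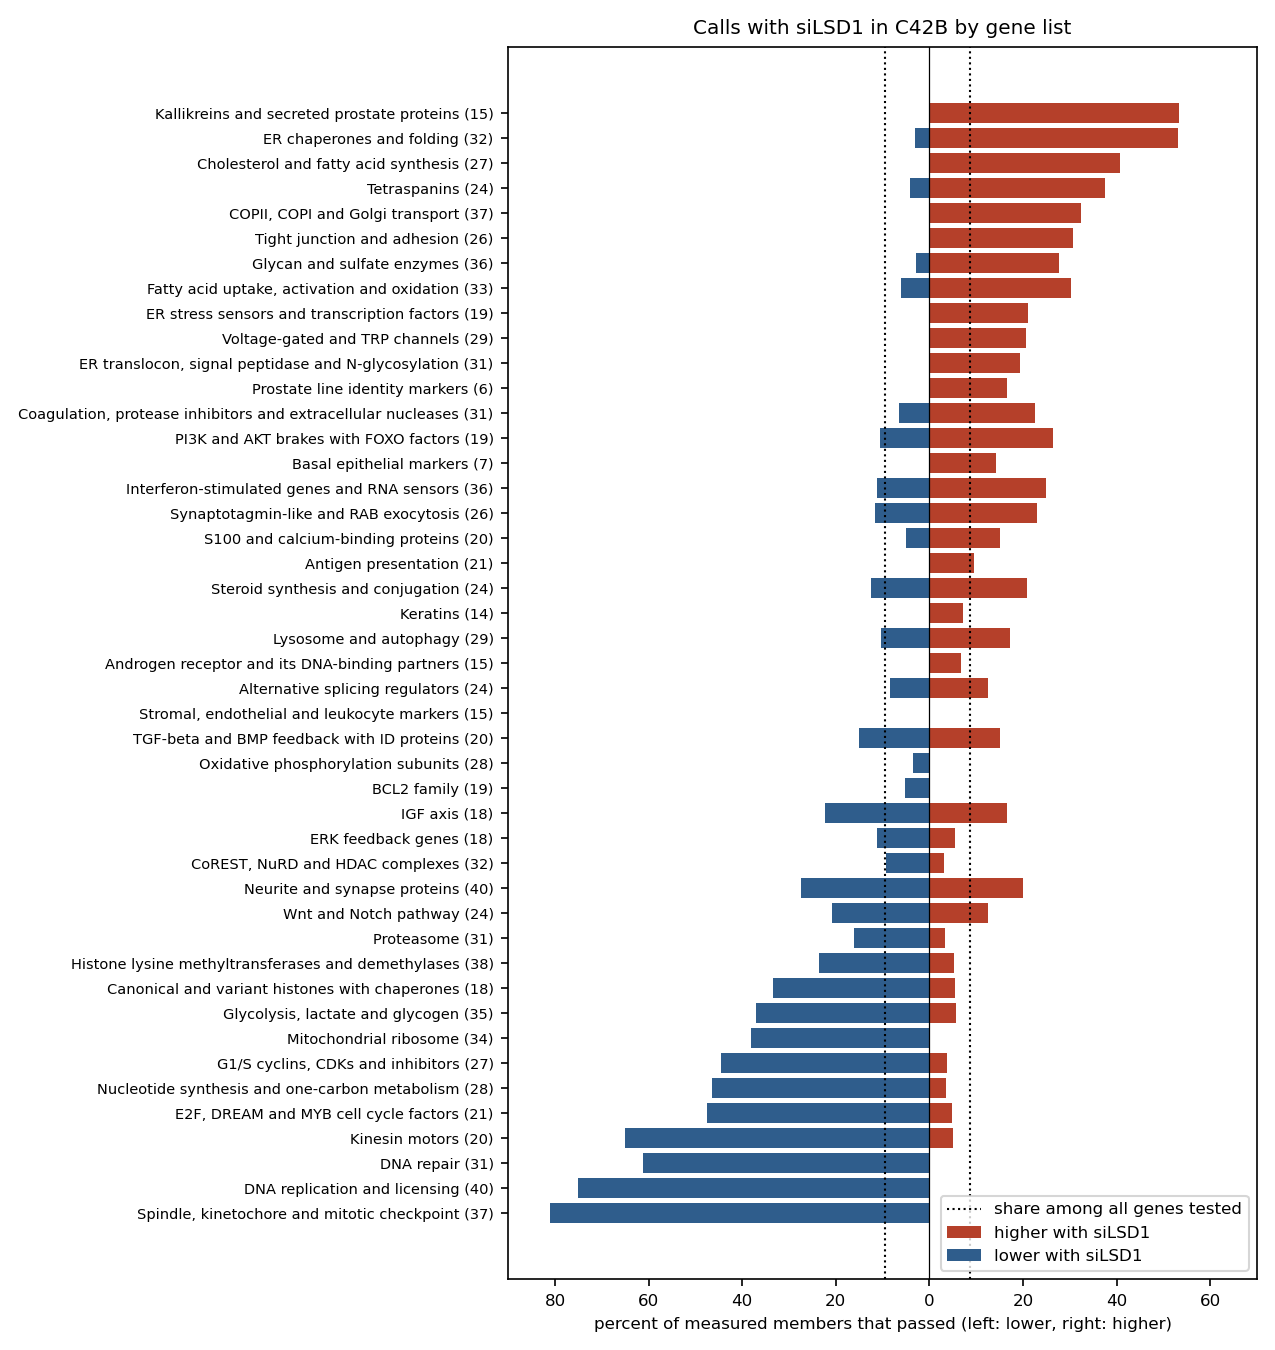
Percent of the measured members of each gene list that passed higher (right of 0) or lower (left of 0) with siLSD1 in C42B, with the number measured in brackets; dotted lines give the shares among all genes tested, 8.66% higher and 9.39% lower. Spindle, replication, repair and kinesin genes extend furthest to the left, and secreted prostate proteins, ER chaperones and lipid synthesis genes furthest to the right.

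In the growth factor signalling lists some genes rose and others fell. Of all genes 8.66% were higher and 9.39% lower, and the counts of the ERK feedback list below lie near these shares. Insulin-like growth factors signal through the receptor IGF1R, are bound by the IGFBP proteins and are cleared by IGF2R. Of 18 genes of this axis 3 were higher and 4 lower. The ligand IGF1 read 7.60, 7.61 and 7.47 with siLSD1 and 8.80, 8.74 and 8.68 with siNTC (−1.18 ± 0.06, adjusted p = 0.00011), while IGF1R rose by 0.59 ± 0.08 and IGF2R by 0.68 ± 0.07. IGF1 was lower in each siLSD1 array, and with DHT it rose by 1.73 ± 0.10. IGFBP2 rose by 0.32 ± 0.06 beside the fall of IGFBP3. The insulin receptor INSR fell by 0.30 ± 0.05 and its adaptor IRS1 by 0.28 ± 0.06. The IRS1 call ended with the mean of all probe sets, with a replicate block and without siLSD1 replicate 2 or 3 or siNTC replicate 1 or 2 (adjusted p up to 0.20). In LNCaP IRS1 rose by 0.61 ± 0.10, and the effects differed (adjusted p = 0.00061). Of 19 genes of PI3K and AKT brakes and FOXO factors 5 were higher and 2 lower. INPP4B, a lipid phosphatase that counters PI3K, rose by 0.55 ± 0.05, and PHLPP2, which dephosphorylates AKT, fell by 0.47 ± 0.05. The catalytic subunit PIK3CB, which does not brake the pathway, rose by 0.39 ± 0.06. The falls numbered 1 without siLSD1 replicate 3 or siNTC replicate 1. Of 18 ERK feedback genes 1 was higher and 2 lower, and SPRY2, an inhibitor of receptor kinase signalling, fell by 0.43 ± 0.07. The other calls of that list, DUSP1 (0.28 ± 0.06) and SPRED1 (−0.29 ± 0.07), each ended without 1 or more single arrays (adjusted p up to 0.76 for DUSP1 and 0.55 for SPRED1 over the alternatives). IGF1, IGF1R, INSR and IRS1 were at −0.69, 0.20, −0.18 and −0.15 with all probe sets averaged. INPP4B, DUSP1 and SPRED1 were at 0.34, 0.035 and −0.085 with all probe sets averaged.

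Developmental pathways held single large changes. JAG1, a ligand of Notch receptors, read 11.60, 11.55 and 11.70 with siLSD1 and 10.56, 10.50 and 10.46 with siNTC (1.11 ± 0.06, adjusted p = 0.00013). WNT5A, a non-canonical Wnt ligand, read 10.55, 10.56 and 10.69 with siLSD1 and 9.73, 9.68 and 9.70 with siNTC (0.90 ± 0.06, adjusted p = 0.00021). NRARP, a feedback inhibitor of Notch, fell by 0.56 ± 0.06 and LEF1, a transcription factor of Wnt signalling, by 0.55 ± 0.06. The list of 24 Wnt and Notch genes had 3 higher and 5 lower members, beside 8.66% and 9.39% of all genes. It had 3 lower ones without siLSD1 replicate 2 or 3 or siNTC replicate 2 or 3. Among 20 TGF-beta, BMP and ID genes 3 were higher and 3 lower, beside the same shares. ID1, an inhibitor of basic helix-loop-helix factors, fell by 0.58 ± 0.06 in C42B and by 1.97 ± 0.16 in LNCaP, a difference of 1.39 ± 0.19 (adjusted p = 0.00068). BAMBI, a pseudoreceptor that damps TGF-beta signals, rose by 0.58 ± 0.05. The lower members numbered 1 without siLSD1 replicate 3 or siNTC replicate 1. JAG1 and LEF1 were at 0.73 and −0.26 with all probe sets averaged.

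Some steroid enzyme genes changed, in LNCaP as well as in C42B. Of 24 genes of steroid synthesis and conjugation 5 were higher and 3 lower in C42B, beside 8.66% and 9.39% of all genes. In LNCaP in fetal bovine serum 6 were higher and 4 lower, beside 13.4% and 12.5% of all genes. RDH11, a retinal reductase of the prostate, read 13.74, 13.83 and 13.87 with siLSD1 and 13.09, 13.14 and 12.90 with siNTC (0.77 ± 0.07, adjusted p = 0.00092). SRD5A1, a 5-alpha-reductase that makes DHT from testosterone, rose by 0.50 ± 0.06, and the 17-beta-hydroxysteroid dehydrogenases HSD17B6 and HSD17B4 rose by 0.48 ± 0.06 and 0.47 ± 0.05. UGT2B15, which adds glucuronic acid to androgens, read 7.81, 7.65 and 7.57 with siLSD1 and 8.55, 8.54 and 8.55 with siNTC (−0.87 ± 0.07, adjusted p = 0.00042). UGT2B17 reached a dim level and fell by at least 0.29 (fitted −0.80 ± 0.15). These paralogs are close in sequence, so a probe set's signal may not belong to a single gene. Without siLSD1 replicate 1 the lower members numbered 5. Among 15 genes of the androgen receptor and its DNA-binding partners 1 passed, the coactivator NCOA2 (0.30 ± 0.07), and it did not pass with the mean of all probe sets, with a replicate block or without siLSD1 replicate 2 or 3 or siNTC replicate 2 or 3 (adjusted p up to 0.42). The transcript of the androgen receptor itself was not analysed here. SRD5A1, HSD17B4, UGT2B15 and NCOA2 were at 0.28, 0.24, −0.49 and 0.14 with all probe sets averaged.

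Beyond KDM1A few genes of the complexes in which LSD1 works passed. Of 32 CoREST, NuRD and HDAC genes 1 was higher and 3 lower, KDM1A included, beside 8.66% and 9.39% of all genes. The lower count lies near the share of all genes. CTBP1, a corepressor, fell by 0.32 ± 0.05. RCOR1, the CoREST scaffold, differed by −0.07 ± 0.07 (adjusted p = 0.57), HDAC1 by −0.07 ± 0.05 (adjusted p = 0.35) and HDAC2 by −0.07 ± 0.08 (adjusted p = 0.57). The higher members numbered 3 without siLSD1 replicate 1 and 0 without siLSD1 replicate 3. Of 38 other histone lysine methyltransferases and demethylases 2 were higher and 9 lower, beside the same shares. SUV39H1, which methylates histone H3 in heterochromatin, fell by 0.46 ± 0.08 and KDM3A, a demethylase, by 0.32 ± 0.05. The lower members numbered 3 to 5 without siLSD1 replicate 2 or 3 or siNTC replicate 1 or 2, and the higher ones 4 without siLSD1 replicate 1, 1 without siLSD1 replicate 3 or siNTC replicate 1 or 3 and 0 without siLSD1 replicate 2 or siNTC replicate 2. CTBP1 and KDM3A were at −0.17 and −0.19 with all probe sets averaged.

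Among 24 regulators of alternative splicing 3 were higher and 2 lower, near the shares of all genes (8.66% and 9.39%). PTBP2 rose as described, and PTBP1, its widely expressed relative, which is known to hold PTBP2 down in non-neuronal cells, read 11.67, 11.59 and 11.59 with siLSD1 and 12.11, 12.14 and 12.18 with siNTC (−0.53 ± 0.05, adjusted p = 0.00095). With the mean of its 4 probe sets PTBP1 did not pass (adjusted p = 0.17). SRSF7, a serine-rich splicing factor, fell by 0.37 ± 0.05 and ESRP1, an epithelial splicing regulator, rose by 0.27 ± 0.05. PTBP1 and SRSF7 were at −0.12 and −0.22 with all probe sets averaged.

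Cell surface families held several of the largest rises. Tetraspanins organise membrane microdomains, and of 24 measured 9 were higher and 1 lower. TSPAN7 read 7.45, 7.65 and 7.65 with siLSD1 and 6.04, 6.03 and 5.71 with siNTC, a rise of at least 1.58 from a dim level (1.66 ± 0.10 as fitted). TSPAN31, TSPAN15 and TSPAN1 rose by 0.57 ± 0.08, 0.47 ± 0.07 and 0.46 ± 0.06, and TSPAN6 fell by 0.70 ± 0.05. Without siLSD1 replicate 3 the rises numbered 5. Of 29 voltage-gated and TRP channel genes 6 were higher and none lower. TRPM8, the cold and menthol sensor known as an androgen target in prostate, read 11.69, 11.64 and 11.65 with siLSD1 and 10.20, 10.20 and 10.10 with siNTC (1.497 ± 0.05, adjusted p = 1.9e-05). It rose by 4.04 ± 0.06 with DHT. SCN4B, a beta subunit of sodium channels, read 7.27, 7.24 and 7.22 with siLSD1 and 5.65, 5.58 and 5.57 with siNTC, at least 1.24 from a dim level. TRPM4, a calcium-activated cation channel, rose by 0.68 ± 0.06 and TRPV6, an epithelial calcium channel, by 0.57 ± 0.06. TRPM8 and TRPV6 were at 0.78 and 0.35 with all probe sets averaged.

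Of 26 epithelial junction genes 8 rose and none fell: CLDN12, a claudin, rose by 0.68 ± 0.06, the desmosomal plakophilin PKP2 by 0.58 ± 0.11, cingulin CGN by 0.34 ± 0.06, occludin OCLN by 0.33 ± 0.05 and CLDN8 by 0.33 ± 0.05. Of 14 keratins 1 passed, KRT19 (0.32 ± 0.07), and its call ended with its probe sets averaged (adjusted p = 0.49) and without siLSD1 replicate 2 or 3 or siNTC replicate 1. Of 7 basal epithelial markers 1 passed, ITGA6 (0.44 ± 0.10), which did not pass in 5 of the 6 fits with an array left out (adjusted p up to 0.076). OCLN, KRT19 and ITGA6 were at 0.50, 0.077 and 0.28 with all probe sets averaged.

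Of 40 neurite and synapse genes 8 were higher and 11 lower, beside 8.66% and 9.39% of all genes. Beside SERPINI1, RTN1, NAV3 and PLPPR1, the microtubule protein MAP2 rose by 0.59 ± 0.08, the ephrin EFNB2 fell by 0.47 ± 0.07 and the guidance receptor ROBO1 by 0.47 ± 0.06. The falls numbered 6 or 7 without any array other than siLSD1 replicate 1 and 6 with probe sets averaged. Among 31 coagulation factors, protease inhibitors and extracellular nucleases 7 were higher and 2 lower. SERPINB5, the serpin also called maspin, read 6.76, 6.95 and 6.93 with siLSD1 and 6.11, 6.00 and 6.03 with siNTC (0.83 ± 0.07, adjusted p = 0.00042), and TFPI, an inhibitor of the tissue factor pathway, rose by 0.57 ± 0.07. Neither passed in LNCaP (0.20 ± 0.07, adjusted p = 0.077, and −0.07 ± 0.06, adjusted p = 0.52), and both differences passed (adjusted p = 0.0015 and adjusted p = 0.00082). The falls numbered 1 without any array other than siLSD1 replicate 1. Among 20 S100 and calcium-binding genes 3 were higher and 1 lower, beside the same shares of all genes. S100A10, the partner of annexin A2, read 8.96, 9.08 and 9.08 with siLSD1 and 8.19, 8.19 and 8.05 with siNTC (0.90 ± 0.06, adjusted p = 0.00029) and S100A11 rose by 0.46 ± 0.06. S100P differed by −0.32 ± 0.06 in C42B, a call that ended without siLSD1 replicate 3 (adjusted p = 0.051), and rose by 2.48 ± 0.07 in LNCaP. Without siLSD1 replicate 1 the lower members numbered 2, and without siNTC replicate 2 they numbered 3. MAP2, SERPINB5, TFPI and S100A10 were at 0.33, 0.41, 0.36 and 0.48 with all probe sets averaged.

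Interferon-stimulated genes did not move as a body. These genes answer type I interferon and foreign RNA in the cytosol. Of 36 measured 9 were higher and 4 lower, beside 8.66% and 9.39% of all genes, with a median of 0.05. IFI6, a mitochondrial and ER protein, read 9.56, 9.77 and 9.61 with siLSD1 and 8.93, 8.93 and 8.98 with siNTC (0.71 ± 0.07, adjusted p = 0.00075). IFITM1, which blocks entry of viruses, read 6.35, 6.24 and 6.14 with siLSD1 and 6.96, 6.89 and 6.85 with siNTC (−0.66 ± 0.07, adjusted p = 0.001), with each siLSD1 array below each siNTC array. IFIT1, which binds viral RNA, rose by at least 0.80 from a dim level, while OAS3, an RNA-sensing synthetase, fell by 0.45 ± 0.05 and IRF7, a transcription factor of the pathway, by 0.42 ± 0.06. The rises numbered 4 or 5 without siLSD1 replicate 2 or 3 or siNTC replicate 2 or 3. In LNCaP 23 of the 36 were higher and 1 lower, beside 13.4% and 12.5% of all genes, and the difference between the lines passed for 17, in each with the lower effect in C42B. Of 21 antigen presentation genes 2 were higher in C42B, near the share of all genes. B2M, the light chain of class I molecules, rose by 0.42 ± 0.05 (adjusted p = 0.0018). TAPBPL rose by 0.20 ± 0.05, and its call ended in each fit that left out 1 array (adjusted p up to 0.11). OAS3 and B2M were at −0.18 and 0.26 with all probe sets averaged.

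The lines differed most at genes of these and other kinds. S100P had the largest difference in size, −2.80 ± 0.09 (adjusted p = 1.5e-08). Next among the negative differences was the chemokine CXCL10, dim in both C42B groups, with −2.03 ± 0.19. OASL, an oligoadenylate synthetase-like protein, rose by 0.31 ± 0.05 in C42B and by 2.16 ± 0.06 in LNCaP. The largest positive difference was that of UGT2B28 (2.04 ± 0.14), which differed by −0.36 ± 0.10 in C42B (adjusted p = 0.051) and by −2.40 ± 0.08 in LNCaP. In C42B its mean was 6.23 with siNTC and a dim 5.87 with siLSD1. Whether this low level limited its fall there was not tested. TM4SF1, a surface protein of the tetraspanin-like family, read 11.59, 11.64 and 11.59 with siLSD1 and 11.32, 11.27 and 11.27 with siNTC in C42B, a rise of 0.32 ± 0.05, and it fell by 1.28 ± 0.07 in LNCaP. MYBL1, a MYB factor, fell by 0.67 ± 0.05 in C42B and fell by 2.52 ± 0.24 in LNCaP, and its C42B call ended with its probe sets averaged (adjusted p = 0.33). CDK19, a kinase of the Mediator complex, fell by 0.44 ± 0.05 in C42B and fell by 1.90 ± 0.06 in LNCaP; of its 3 other probe sets 1 passed higher and 1 lower in C42B, and with the mean of all of them it did not pass (adjusted p = 0.10). The 8 leading differences in each direction passed under each alternative that was run. OASL, TM4SF1, MYBL1 and CDK19 were at 0.50, 0.18, −0.074 and −0.14 with all probe sets averaged.

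The calls in C42B were also set beside those in LNCaP and those with DHT, whose arrays are separate. In LNCaP 13.4% of all genes were higher and 12.5% lower. Of the 1713 higher genes in C42B 1047 were also higher in LNCaP, 61.1% of them and 39.7% of the 2640 genes higher there, and 25 were lower. Of the 1856 lower genes 1116 were also lower in LNCaP, 60.1% of them and 45% of the 2480 lower there, and 39 were higher. The effect itself differed between the lines for 500 of the higher and 551 of the lower genes. Over the 19775 genes Pearson's r between the C42B and LNCaP effects was 0.58 and Spearman's rank correlation 0.46, a description in which genes are not independent replicates. Against the DHT effects these were 0.055 and 0.023. DHT raised 13.4% of all genes and lowered 19.4%. Of the genes higher with siLSD1, 515 were also higher with DHT and 595 were lower. Of those lower with siLSD1, 508 were also lower with DHT and 260 were higher. Among the leading rises DHT lowered ACP3, SERPINI1 (−1.56), TMEM178A (−1.24), PTBP2 (−0.60), PROCR (−0.58), HMGN2P46 (−0.48), RTN1 (−0.47) and DNASE1L3 (−0.33). It also lowered SCGB1D2 (−0.60) and TSPAN7 (−0.20), which were dim with DHT and with vehicle. DHT raised TRPM8, LCK (1.77), CRISP3 (1.21), FKBP1B (0.85) and ARG2 (0.24). TSPAN8, SCN4B, HOPX and TTYH1 did not pass with DHT.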

How the data were processed

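Gene expression was measured in 20 samples in 6 groups, of which 6 are compared here. The deposited values are linear intensity values per probe set, made by the authors with tools that the submitters' processing notes name as RMA and affy, with no version given. Log2 was taken of them. The labels' protocols name a pair of labelling kits without saying which samples had which. The raw scans were not used here.

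Of 54675 probe sets 41097 name 1 gene in the platform annotation, 1801 several and 11777 none. Of the 19775 genes 19735 matched RefSeq, and 10523 had several probe sets. No dim probe set was removed. The 6 arrays were fitted with limma 3.58.1 (lmFit, eBayes; R 4.3.3) and no covariates. The difference between the lines was a contrast over the 12 siRNA arrays. In data simulated for this comparison, with 200 of 19775 genes changed, 18% of changes of 0.3 were recovered, 52% of 0.5 and 96% of 1, with 7 false calls. The number of arrays limits the precision.

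The comparison and the 45 gene lists (1227 genes, 1138 measured) were chosen with earlier results of these data known. The rule named the 20 largest rises and falls that passed, up to 5 passing members per list, the 8 largest line differences in each direction and passing members with a promoter motif. Within it, members whose calls held when an array was left out were mostly chosen. ACAD8, CDC20, EFNB2, FOXM1, HDAC1, HDAC2, HK2, HSD17B4, INSR, IRS1, RCOR1, ROBO1 and TSPAN1 were named after their values were seen. A gene among the rises and a gene among the falls that the rule named are not reported here. Alternatives were leaving out each array, averaging a gene's probe sets, a filter on dim genes, median centring, quantile normalization, blocking on the replicate number, a trended robust eBayes and a fit of all 20 arrays. Promoters are from RefSeq, GRCh38.p14.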

Additional observations from a re-analysis of the deposited data

Results flagged for a closer look

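For the genes below the siLSD1 effect differed between the lines by the contrast over 12 arrays (limma adjusted p under 0.05 for each). The lines also differ in serum and siRNA conditions, which cannot be told apart from the line. Differences are the C42B effect minus the LNCaP effect on the log2 scale. Their causes were not tested.

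The effect was higher in C42B for UGT2B28 (2.04 ± 0.14), CCDC83 (1.92 ± 0.08), MYBL1 (1.85 ± 0.28), TM4SF1 (1.60 ± 0.08), TMEM178A (1.56 ± 0.13), ZNF367 (1.52 ± 0.16), FAM111B (1.51 ± 0.27) and CDK19 (1.45 ± 0.07). With all probe sets of a gene averaged, the difference was 0.70 for MYBL1 and 0.94 for TM4SF1. In LNCaP ZNF367 fell by 1.71 ± 0.11 and FAM111B fell by 1.42 ± 0.18, and neither passed in C42B. It was lower in C42B for S100P (−2.80 ± 0.09), CXCL10 (−2.03 ± 0.19), IFIT2 (−1.95 ± 0.24), OASL (−1.85 ± 0.08), PYGL (−1.84 ± 0.13), RSAD2 (−1.83 ± 0.22), IFITM1 (−1.77 ± 0.13) and PLAAT4 (−1.68 ± 0.14). CXCL10 and RSAD2 were dim in both C42B groups, and another probe set of IFIT2 passed higher in C42B. UGT2B28 had C42B means of 6.23 with siNTC and 5.87, a dim level, with siLSD1.

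Among the leading rises in C42B, the rise was larger there than in LNCaP for SCN4B (1.18 ± 0.13), CRISP3 (1.18 ± 0.13), LCK (1.18 ± 0.15), ARG2 (1.15 ± 0.07), DNASE1L3 (1.03 ± 0.13) and TSPAN8 (0.79 ± 0.13), and smaller for HMGN2P46 (−0.92 ± 0.12), PTBP2 (−0.62 ± 0.15) and TRPM8 (−0.38 ± 0.08). SCN4B and LCK were dim in both LNCaP groups. TSPAN8 was dim in C42B with siNTC, at a mean of 4.68. Counted from the level below which a mean was called dim, its C42B rise was at least 0.67. In LNCaP it rose by 1.20 ± 0.11, so that its rise was larger in C42B rests on dim values. Among the leading falls, the difference was negative, with the lower effect in C42B, for IGFBP3 (−1.13 ± 0.10), PLPPR1 (−0.98 ± 0.10), GNG4 (−0.87 ± 0.12), RUNDC3B (−0.84 ± 0.18), RGS2 (−0.64 ± 0.10) and TTC6 (−0.40 ± 0.12). PLPPR1, GNG4, RUNDC3B and RGS2 were dim in both LNCaP groups. It was positive for E2F7 (1.05 ± 0.17), ASPM (0.77 ± 0.16), UGT2B15 (0.70 ± 0.09) and NAV3 (0.56 ± 0.12), which fell further in LNCaP.

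Outside the genes analysed, 13522 probe sets name no single gene in the annotation. Fitted with all probe sets, 345 of them rose and 408 fell in C42B, with log2 fold changes from −1.52 to 2.16.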

How the results depend on the processing

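With an array left out the higher genes numbered 958 to 1975 and the lower genes 949 to 1987; under the other alternatives they numbered 1381 to 2250 and 1407 to 2485. The genes with a higher effect in C42B than in LNCaP numbered 738 to 1288 with a C42B array left out and 978 to 1480 otherwise, and those with a lower effect 822 to 1256 and 1000 to 1491. KDM1A stayed between −2.48 and −2.36 with adjusted p up to 5.5e-04. Of 220 named genes 168 passed in the same direction under each alternative run; 39 lost their call when an array was left out and 25 with the mean of all probe sets. TGFBR1 (0.45) reversed with that mean (−0.036, adjusted p = 0.69), where another of its probe sets passed lower. Of 90 list counts 47 moved by over 1.5 times when an array was left out and 45 in another alternative; the cause was not tested.

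Equal replicate numbers were not taken to pair the arrays: around the group means, siLSD1 and siNTC arrays with equal numbers correlated at 0.095, 0.18 and −0.096. With the replicate block 1381 genes were higher and 1407 lower, and 16 named genes lost their call. No scaling moved the median of all genes by over 0.1. With 200 of 19775 genes changed, the simulation recovered 18% of changes of 0.3. Many more genes passed in the data, which eases the adjusted threshold, so recovery there may differ and was not measured. Small changes that did not pass are not shown to be absent, and arrays give no depth from which to set a floor.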
